A study of Mus musculus with 8 samples.

Results

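The interleukin 6 (IL-6) family pathway was followed in mouse colon through 10 genes chosen by name: the cytokines Il6, Il11, Lif and Osm, the receptor chains Osmr, Il6ra, Il11ra1 and Il6st, the transcription factor Stat3 and the feedback inhibitor Socs3. All 10 were found among the 53465 genes measured, and 9 of them had a mean of at least 3 on the rlog scale, which was the condition for testing. Il6 lay under that limit. RNA of 8 mice was sequenced, 4 with a conditional, cell-specific Arg1 deletion (Arg1 ko) and 4 littermates expressing Arg1 (wild type). Arg1 encodes arginase 1, which splits arginine. The mice, of the B6 background and aged 7 to 12 weeks, were matched by age and by sex, and all received 2.5% dextran sulfate sodium (DSS), which injures the colon epithelium, in the drinking water for a week, then plain water until day 10. No group without DSS was analysed here, and which cells lost Arg1 is not named in the labels.

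Cytokines of this family signal through a common receptor chain, gp130, encoded by Il6st. IL-6 and IL-11 first bind a chain of their own (Il6ra, Il11ra1), whereas oncostatin M joins gp130 to the chain encoded by Osmr, and leukaemia inhibitory factor joins it to the chain encoded by Lifr. Receptor-bound Janus kinases then phosphorylate STAT3, which enters the nucleus and induces Socs3, whose protein blocks gp130 and its kinases in turn. In the injured gut the pathway is known for epithelial repair, the acute phase response and crosstalk between leukocytes and stroma.

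STAT proteins bind the motif TTCNNNGAA, which reads the same on both strands. It was searched in the 250 bases before each RefSeq transcription start (GRCm38.p6), to show which of these genes carry the letters of such a site near their start. Of 32851 windows over all genes 7.02% held it. Windows were found for 9 of the 10 genes (all but Osm), 11 windows in all, and Socs3 was the 1 gene with a match. Among 30 STAT3 target genes listed below, 25 had a window and 4 a match (5 of 33 windows, 15.2%). These matches are shown with 10 bases on each side, 5′ to 3′ on the gene's strand, with the motif in capitals.
Socs3, chr11:117969502-117969530, minus strand: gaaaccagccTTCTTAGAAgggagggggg
Reg3b, chr6:78370746-78370774, plus strand: agcctgttctTTCTTGGAAactctttgag
Irf1, chr11:53769914-53769942, plus strand: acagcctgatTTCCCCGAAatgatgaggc
Icam1, chr9:21015888-21015916, plus strand: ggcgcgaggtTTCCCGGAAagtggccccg
Bcl6, chr16:23988952-23988980, minus strand: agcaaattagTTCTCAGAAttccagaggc
The Socs3 match began 154 bases before the RefSeq start. In the GENCODE vM21 annotation, whose gene models for Socs3 and Reg3b begin further upstream, both matches lay in an intron, while those of Irf1, Icam1 and Bcl6 shown here lay upstream of the gene. A second window of Bcl6 held 3 further matches. A match of letters says nothing about binding in these mice.

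Values are regularised log2 values (rlog), on which 1 unit is a doubling and differences of weakly expressed genes are drawn toward 0. Each difference is the Arg1 ko mean less the wild-type mean, tested with limma over 16380 genes with Benjamini-Hochberg adjustment at 0.05. Not a single gene passed with all 8 libraries (0 of 16380, 0%, smallest adjusted p = 0.522), and 1490 (9.1%) had an unadjusted p under 0.05. Arg1 itself averaged 5.44 ± 0.28 (SD, n = 4) in wild type against 5.07 ± 0.14 (SD, n = 4) in Arg1 ko (exact two-sided permutation p = 0.114, limma adjusted p = 0.522). In the library labelled wild type 3 it stood at 5.02, inside the ko range of 4.87 to 5.19. Its Arg1 value alone thus does not place that library with wild type, and the label was kept. Sample numbers run consecutively or nearly so within each genotype with a gap between them, so any batch they mark cannot be told apart from genotype. Labelled as colon, the material is described by the protocol as epithelial aggregates released with 30 mM EDTA. Epcam, an epithelial surface protein, stood between 15.13 and 15.75, and Myh11, the myosin of smooth muscle, between 13.83 and 15.41. RNA of cells other than epithelium was thus present as well, and where in the colon wall they lay was not tested. All 10 family genes had the larger SD in wild type, as did 90.9% of all tested genes.

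To compare genes with each other, the rlog level was put per kilobase of the longest transcript. Stat3 was the most abundant (9.35, mean of 8 libraries), followed by Il6st (8.40), Il11ra1 (7.62), Socs3 (7.52), Osmr (6.05), Il6ra (5.99), Lif (4.28), Il11 (3.79), Osm (2.78) and Il6 (0.96). The shared receptor and the transcription factor were thus far above the cytokines on this scale. Il11ra1 and Socs3, and likewise Osmr and Il6ra, differed by less than their SD across libraries. With all exons merged as the length, Il11ra1 (6.84) came after Socs3 (7.34) and Osmr (4.91) after Il6ra (5.99).

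Among the cytokines, Osm was lower in Arg1 ko by 0.45 on the rlog scale, the largest difference among the tested family genes, without passing the test over all genes. Oncostatin M is made mainly by neutrophils, monocytes and other leukocytes. Osm (ENSMUSG00000058755, chromosome 11, 4236420 to 4241026, plus strand, GRCm38) had 4.22, 4.44, 4.22 and 3.85 in wild type 1 to 4, and 3.69, 3.63, 3.94 and 3.68 in Arg1 ko 1 to 4. The groups overlapped through a single pair, since Arg1 ko 3 lay above wild type 4. The difference was -0.45 with a standard error of 0.14 and a 95% interval of -0.76 to -0.14 (limma unadjusted p = 0.0090, adjusted p = 0.522), and it was -0.30 without wild type 1 and wild type 2. At an unadjusted p under 0.05 on the lower side stood 2 of the 9 tested family genes, Osm and Socs3, against 4.37% of all tested genes. Counting by sign alone, 8 of the 9 were lower, as were 48.8% of all tested genes. Of those 8, Osmr (-0.04) and Il6ra (-0.02) lay near 0. The signs of Il11, Lif, Osmr, Il6ra and Stat3 turned in at least 1 alternative fit.

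Lif, the cytokine gene 16530 bases beyond Osm on the same strand, followed another order. Lif (ENSMUSG00000034394, chromosome 11, 4257557 to 4272514) had 6.28, 5.85, 6.82 and 6.69 in wild type 1 to 4, and 6.24, 6.03, 6.24 and 6.20 in Arg1 ko 1 to 4. Wild type 2, where Osm was highest, had the lowest Lif of all 8 libraries, and the ko values lay inside the wild-type range. The difference was -0.23 with a standard error of 0.20 (limma adjusted p = 0.629). Leaving out the library labelled wild type 3 gave -0.09, leaving out wild type 4 gave -0.14, leaving out wild type 2 gave -0.42, and leaving out wild type 1 and 2 gave -0.58.

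Il11, a cytokine made largely by fibroblasts, and Il6, made by macrophages, stroma and lymphocytes, were set apart by the same library. Il11 (ENSMUSG00000004371, chromosome 7, 4772373 to 4782859, minus strand) had 4.86, 5.51, 4.68 and 4.50 in wild type 1 to 4, and 4.61, 4.62, 4.58 and 4.70 in Arg1 ko 1 to 4. Wild type 2 was the highest, and the 4 ko values fell within the range of the other wild-type libraries. The difference of -0.26 had a standard error of 0.19 (limma adjusted p = 0.586), was -0.05 without wild type 2 and turned positive without wild type 1 and 2 (0.04).

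Il6 (ENSMUSG00000025746, chromosome 5, 30013114 to 30019981, plus strand) was near the lower end of the scale. Its rlog value was 2.21, 2.76, 2.27 and 2.01 in wild type 1 to 4, and 2.06, 2.05, 2.10 and 2.07 in Arg1 ko 1 to 4. It too was highest in wild type 2, and the ko libraries differed among themselves by no more than 0.05. The group difference was -0.24 and was not tested with the others (limma adjusted p = 0.673 with no filter on low values).

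**Figure D1:**
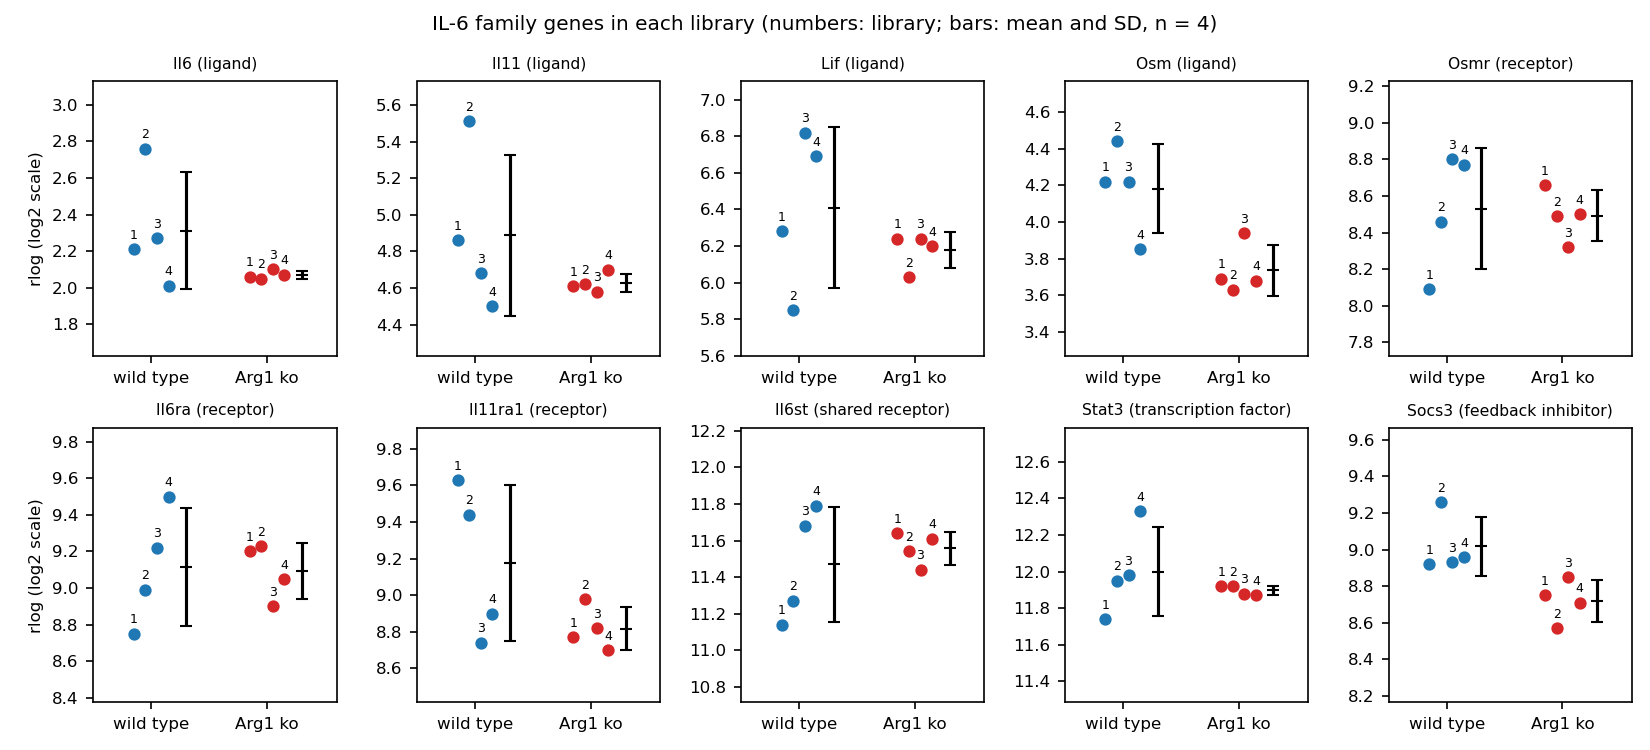
The rlog value (log2 scale) of each of the 10 genes in each library, with wild type in blue and Arg1 ko in red; numbers name the library, the bars give mean and SD (n = 4), and each panel spans the same height on the axis. Socs3 is the gene whose ko values all lie below the wild-type values, and wild type 2 is highest for Il6, Il11, Osm and Socs3.

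The mean over markers of neutrophils, a source of oncostatin M, was highest in wild type 2, as were Il6, Il11 and Osm, whereas Lif was lowest there. Not every marker peaked in that library. Ltf (5.22) and Camp (2.5) were highest in wild type 1, Cxcr2 (2.09) in the library labelled wild type 3 and Csf3r (5.66) in Arg1 ko 1. Camp and Cxcr2 lay under the limit for testing. Of 8 neutrophil markers 6 were tested, of which 5 were lower in Arg1 ko, with a median difference of -0.56 against 0.01 over all tested genes, and none was listed at 0. The mean rlog over the 8 markers was 5.16, 5.58, 4.76 and 5.18 in wild type 1 to 4 and ranged from 4.66 to 4.84 in Arg1 ko. The library labelled wild type 3 thus fell in the ko range. Its Il11 (4.68) also lay in the ko range of that gene, whereas its Osm (4.22), Lif (6.82) and Il6 (2.27) lay above theirs. Among the tested markers the differences ran from -1.35 for Ly6g, a neutrophil surface protein, to 0.28 for Csf3r. The part of these markers in the Osm difference was not tested. The macrophage and monocyte markers had a mean of 8.88 to 9.28 in wild type and 9.09 to 9.22 in Arg1 ko, with 4 of 8 higher. The fibroblast markers had 10.55 to 10.86 and 10.87 to 10.93, with 6 of 9 higher and the 3 collagens leading. All 4 red blood cell genes were lower (median -0.90), with a mean of 10.05 to 12.31 in wild type, highest in wild type 1 and 2, and of 10.05 to 10.80 in Arg1 ko. All 4 B cell genes were lower as well (median -0.42), with a mean of 4.88 to 6.54 in wild type, highest in the library labelled wild type 3, and of 5.12 to 5.40 in Arg1 ko. Of the tested markers of T cells 3 of 6 were higher, of endothelium 4 of 5, of smooth muscle 3 of 4 and of mast cells 0 of 2. The part of any of these cells in the differences was not tested. In bulk RNA, fewer cells of a type and less RNA per cell cannot be told apart.

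The receptor chains of IL-6 and oncostatin M and the shared chain gp130 had group means that lay closer together than the SD of the wild-type libraries. Il6st (ENSMUSG00000021756, chromosome 13, 112464070 to 112510086, plus strand) had 11.14, 11.27, 11.68 and 11.79 in wild type 1 to 4, and 11.64, 11.54, 11.44 and 11.61 in Arg1 ko 1 to 4. All 4 ko values lay inside the wild-type range, above wild type 1 and 2 and below the other two. The difference of 0.09 had a 95% interval of -0.24 to 0.42 (limma adjusted p = 0.802), which became -0.02 when wild type 1 was left out and -0.18 when wild type 1 and 2 were left out.

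Osmr, the signalling chain for oncostatin M, which stromal cells express strongly, was also lowest in wild type 1. Osmr (ENSMUSG00000022146, chromosome 15, 6813577 to 6874969, minus strand) had 8.09, 8.46, 8.80 and 8.77 in wild type 1 to 4, and 8.66, 8.49, 8.32 and 8.50 in Arg1 ko 1 to 4. The ko values lay inside the wild-type range. The difference was -0.04 with an interval of -0.40 to 0.33 (limma adjusted p = 0.924). Dropping the library labelled wild type 3 gave 0.05, and dropping both wild type 1 and 2 gave -0.29.

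Il6ra, the IL-6 binding chain, was likewise lowest in wild type 1. Il6ra (ENSMUSG00000027947, chromosome 3, 89864059 to 89913196, minus strand) had 8.75, 8.99, 9.22 and 9.50 in wild type 1 to 4, and 9.20, 9.23, 8.90 and 9.05 in Arg1 ko 1 to 4. The ko values covered the middle of the wild-type range. The difference was -0.02 with an interval of -0.38 to 0.33 (limma adjusted p = 0.957). It came to 0.11 when wild type 4 was dropped and to -0.27 when wild type 1 and 2 were.

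Il11ra1, the IL-11 binding chain, ran the other way across the wild-type libraries. Il11ra1 (ENSMUSG00000073889, chromosome 4, 41699989 to 41769474, plus strand) had 9.63, 9.44, 8.74 and 8.90 in wild type 1 to 4, and 8.77, 8.98, 8.82 and 8.70 in Arg1 ko 1 to 4. Wild type 1 and 2 were the highest libraries, and the other two wild-type values lay among the ko values. The difference of -0.36 had a standard error of 0.19 (limma unadjusted p = 0.0878, adjusted p = 0.522), and without wild type 1 and 2 it was -0.00 (limma adjusted p = 0.997, the highest among the alternatives, which began at 2.3e-05 with weighted libraries). Mouse Il11ra1 has near-identical copies, among them Il11ra2, listed at 0 in all 8 libraries, so how reads were split between the copies is uncertain.

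**Figure D2:**
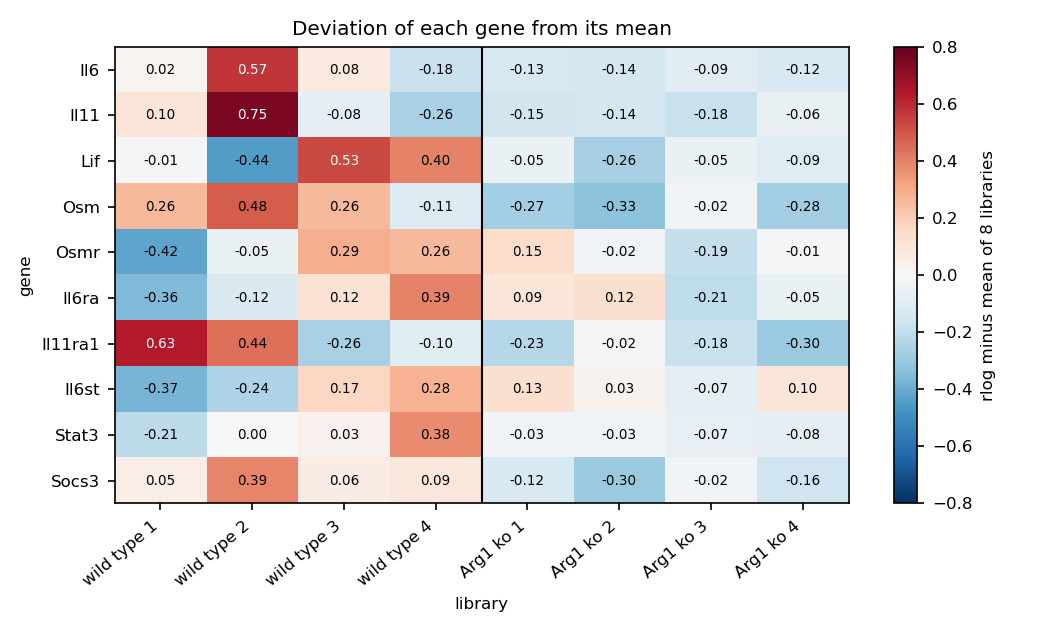
Deviation of each gene from its own mean over the 8 libraries (rlog, colour and printed number), with genes in rows and libraries in columns, the black line parting the genotypes. Wild type 1 is lowest for Osmr, Il6ra, Il6st and Stat3 and highest for Il11ra1, and the colours are paler in the ko libraries, in which the SD of all 10 genes was smaller.

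The genes that were low in wild type 1 have long transcripts. The longest transcript measures 8678 bases for Il6st, 8639 for Il6ra, 6042 for Stat3 and 5491 for Osmr, against 2605 for Il11ra1, 2552 for Socs3 and 2272 for Osm. After a correction of each library for transcript length, chosen after seeing the data, the differences were -0.09 for Il6st, -0.20 for Il6ra, -0.23 for Stat3 and -0.15 for Osmr, and -0.33, -0.27 and -0.40 for Il11ra1, Socs3 and Osm. For Il11 (1949 bases) and Lif (4026 bases) they were -0.18 and -0.28. The sign thus turned for Il6st and held for the other tested family genes. Again 0 of 16380 genes passed (limma, 0%).

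Stat3, the factor that carries the signal to the nucleus, had similar means in both genotypes. Stat3 (ENSMUSG00000004040, chromosome 11, 100885098 to 100939540, minus strand) had 11.74, 11.95, 11.98 and 12.33 in wild type 1 to 4, and 11.92, 11.92, 11.88 and 11.87 in Arg1 ko 1 to 4. The ko libraries lay within 0.05 of each other and inside the wild-type range, which wild type 4 stretched upward. The difference was -0.10 with an interval of -0.37 to 0.17 (limma adjusted p = 0.725). Leaving wild type 4 out moved it to 0.01, and leaving wild type 1 and 2 out moved it to -0.25. The RNA level does not report the phosphorylation by which STAT3 is activated.

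Socs3, the feedback inhibitor that STAT3 induces, was lower in each Arg1 ko library than in any wild-type library, by 0.30 on average, without passing the test over all genes. Socs3 (ENSMUSG00000053113, chromosome 11, 117966079 to 117970047, minus strand) had 8.92, 9.26, 8.93 and 8.96 in wild type 1 to 4, and 8.75, 8.57, 8.85 and 8.71 in Arg1 ko 1 to 4. The nearest values of the groups were 0.07 apart, and wild type 2 stood out above the other wild-type libraries. The difference of -0.30 had a standard error of 0.11 and an interval of -0.55 to -0.04 (limma unadjusted p = 0.0265, adjusted p = 0.522). Ko values entirely below the wild-type values were found in 1 of the 9 tested family genes and in 1.67% of all tested genes. Without wild type 2 the difference was -0.22 (limma adjusted p = 0.813), and without the library labelled wild type 3 it was -0.33 (limma adjusted p = 0.118), over alternatives whose adjusted p ran from 2.6e-05 with weighted libraries to 0.819. In the fit without the library labelled wild type 3, 6.14% of all genes passed and 0 of the 9 tested family genes did.

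**Figure D3:**
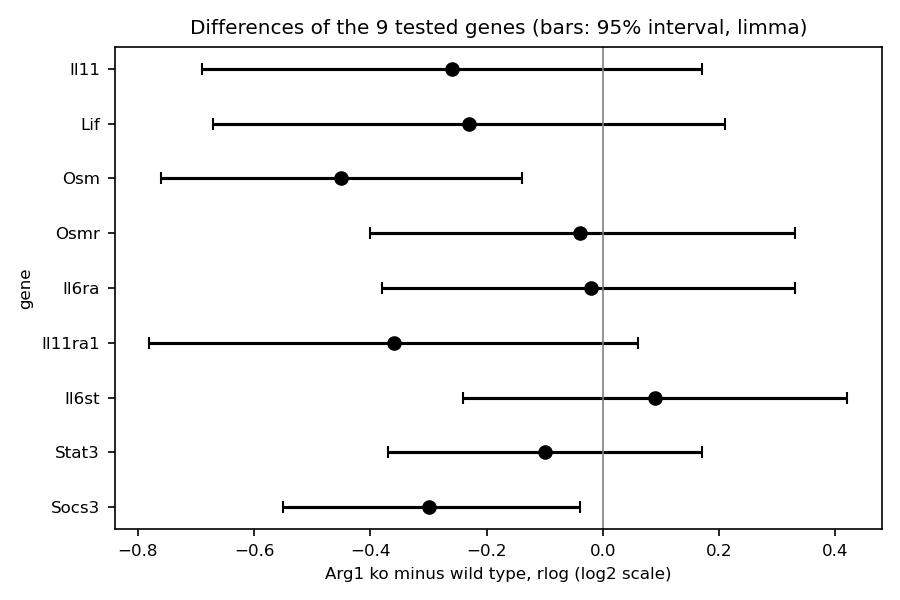
Difference between the group means (Arg1 ko minus wild type, rlog, log2 scale) for the 9 tested genes, with the 95% interval of the limma fit. The intervals of Osm (-0.76 to -0.14) and Socs3 (-0.55 to -0.04) lie below 0 before adjustment, and the others include 0.

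Socs3 was compared with each of the other 8 tested genes across libraries, since it is induced by STAT3. The signal of the family itself was not measured, so a correlation with Socs3 is not a measure of it. Osm was the 1 gene of 8 whose correlation with Socs3 passed the adjustment (Pearson r = 0.88, exact permutation p = 0.00174, adjusted p = 0.0139 over the 8 relations). Spearman's rho was 0.86 (exact permutation p = 0.0107, adjusted p = 0.0857), which did not pass. Without the 2 libraries farthest from the median of Osm, wild type 2 and the library labelled wild type 3, r was 0.77 (exact permutation p = 0.0653), which no longer passed. With the group means removed, r was 0.70 (permutation over all 8 libraries, adjusted p = 0.213). That p is approximate, because values with their group mean removed are no longer freely exchangeable between genotypes. Without wild type 2 it was 0.79 (exact permutation, adjusted p = 0.184) and without Arg1 ko 3 it was 0.88 (exact permutation, adjusted p = 0.0524). Each genotype holds 4 libraries, too few for a value of its own.

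Il11 had r = 0.74 with Socs3 (rho = 0.17, exact permutation p = 0.0605 and 0.703, adjusted p = 0.242 and 0.977), and r was 0.74 again without wild type 1 but 0.08 without wild type 2, so the relation rests on wild type 2. Without both it was -0.35. Stat3 had r = 0.20 and rho = 0.57 (exact permutation p = 0.582 and 0.151, adjusted p = 0.921 and 0.605), with r = 0.50 without wild type 1 and 4 and r = 0.64 after the correction for transcript length (exact permutation, adjusted p = 0.282). Il6st had r = -0.38 and rho = 0.02 (exact permutation p = 0.361 and 0.977, adjusted p = 0.721 and 0.977), with r = 0.49 without wild type 1 and 2. For Il11ra1 r was 0.53 and rho 0.33 (exact permutation p = 0.197 and 0.428, adjusted p = 0.524 and 0.977), and r was -0.29 without wild type 1 and 2. The other 3 genes, Lif, Osmr and Il6ra, had r between -0.18 and -0.02 and rho between -0.07 and 0.29 (exact permutation, adjusted p between 0.921 and 0.977).

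**Figure D4:**
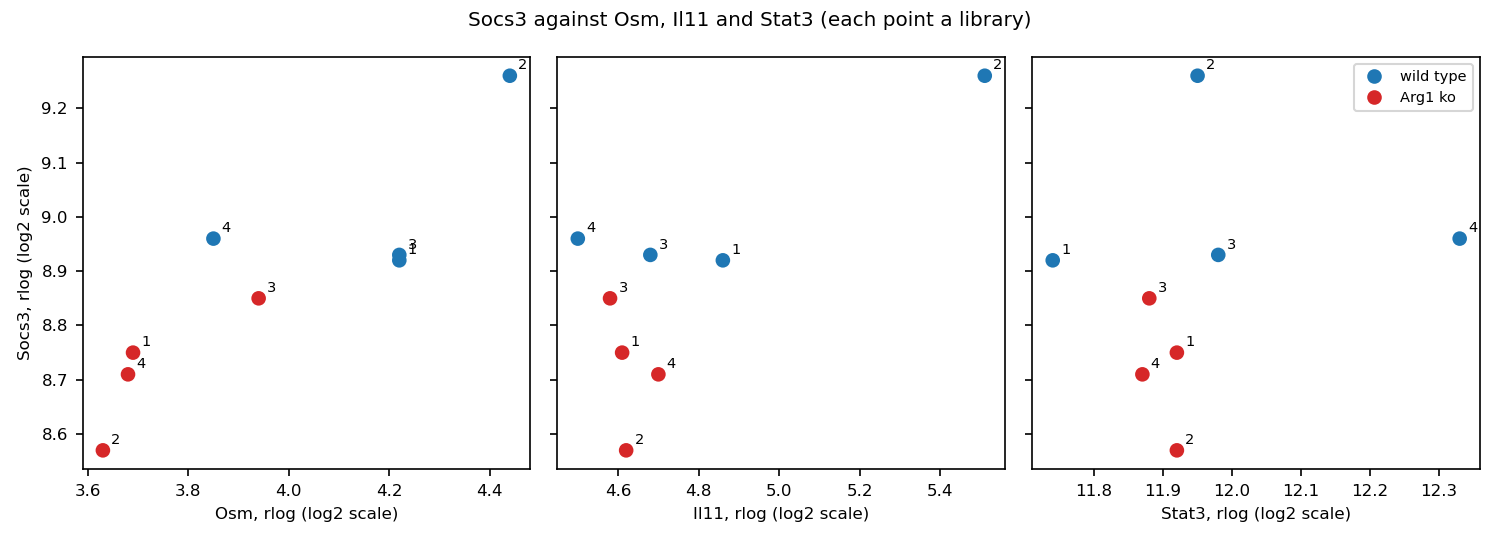
Socs3 against Osm, Il11 and Stat3 (rlog, log2 scale, both axes), each point a library named by its number, wild type in blue and Arg1 ko in red. Socs3 climbs with Osm over the 8 libraries (r = 0.88), whereas with Il11 the relation rests on wild type 2, and for Stat3 r was 0.20.

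The genes whose pattern over the 8 libraries was most like that of Socs3, of 14401 compared by Pearson r, were Lhfpl5 (0.978), the neutrophil-attracting chemokine gene Cxcl2 (0.955), Tnfrsf12a (0.952), which encodes the receptor of the cytokine TWEAK, Zfand5 (0.947) and the epithelial mucin gene Muc13 (0.943). Being the highest of so many, these r values are a description. Cxcl2 had 5.74 in wild type 2 against 4.58 to 4.72 in the other wild-type libraries and 4.06 to 4.69 in Arg1 ko. It shared the peak in wild type 2 with Socs3, but its groups overlapped, as Arg1 ko 3 (4.69) lay above wild type 1 (4.58). Nearest to Osm were Rdh16 (0.964), Adora2a (0.945), which encodes an adenosine receptor, and Mapk12 (0.935), none of which was among the 5 nearest to Socs3. Nearest to Il11 were Acbd4 (0.992), Trem1 (0.976), a receptor of neutrophils and monocytes, and Ufsp1 (0.970), and nearest to Lif were Lrfn5 (0.988), Fmn2 (0.967) and Sept3 (0.935). Among the nearest to Osmr were Plin4 (0.980) and Tbcel (0.974), and Il6ra was nearest to Zfp263 (0.983), Dapk1 (0.980) and Marveld2 (0.980). Among the nearest to Il6st were Zyg11b (0.994) and Firre (0.993), and the nearest were for Il11ra1 Ang (0.997), Tmem219 (0.992) and Blcap (0.992), and for Stat3 Rnf39 (0.995), Numbl (0.992) and Lonrf1 (0.991).

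Of 13 other cytokine and receptor genes of the family 7 were tested, of which 6 were lower and 1 was higher in Arg1 ko, with a median difference of -0.05, and 0 passed the test (limma). Ctf2, Il31 and Il11ra2 were listed at 0 throughout, and Il27, Cntf and Il31ra lay under the limit. Clcf1, which encodes a cytokine that acts through the ciliary neurotrophic factor receptor, averaged 5.70 ± 0.19 (SD, n = 4) in wild type against 5.44 ± 0.08 (SD, n = 4) in Arg1 ko. Il27ra, which pairs with gp130 to bind the cytokine of Il27 and Ebi3, differed by 0.32, a value that was 0.14 without wild type 4 and 0.53 without the library labelled wild type 3. Cntfr, the ciliary neurotrophic factor receptor, differed by -0.05. Lifr, the chain that pairs with gp130 for leukaemia inhibitory factor, averaged 8.72 ± 0.38 (SD, n = 4) in wild type against 8.72 ± 0.14 (SD, n = 4) in Arg1 ko, and like Osmr it was lowest in wild type 1, at 8.23.

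Among 22 kinases, other STAT proteins, receptor-shedding proteases and negative regulators, all tested, 0 passed the test (limma adjusted p = 0.522 or more). By sign 16 were higher and 6 lower, where 8386 of the 16380 tested genes were higher, and the median difference was 0.08 against 0.01 over all tested genes. At an unadjusted p under 0.05 stood 2 on the lower side (4.37% of all tested genes) and 2 on the higher side (4.73%). Socs2, an inhibitor related to Socs3 that restrains growth hormone signalling, had 10.22, 10.19, 9.98 and 10.15 in wild type 1 to 4, and 9.91, 9.90, 9.80 and 9.86 in Arg1 ko 1 to 4. All its ko values thus lay below the wild-type values, with a difference of -0.27 (limma unadjusted p = 0.0130). Tyk2, a Janus kinase, averaged 9.49 ± 0.21 (SD, n = 4) in wild type against 9.79 ± 0.03 (SD, n = 4) in Arg1 ko, which differ by 0.30. Adam17, the protease that sheds the IL-6 receptor from the cell surface, averaged 9.78 ± 0.24 (SD, n = 4) in wild type against 10.10 ± 0.07 (SD, n = 4) in Arg1 ko, which differ by 0.32 with overlapping groups. Ptpn2, a phosphatase that dephosphorylates STAT proteins and Janus kinases, differed by -0.29. Without the library labelled wild type 3 these 4 genes passed, 2 on each side, as did 6.14% of all tested genes.

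STAT3 target genes were mostly lower in Arg1 ko, by a median of 0.28 on the rlog scale. Of 30 genes 29 were tested, Fgg being listed at 0 throughout. Of these, 9 were higher and 20 lower, with a median difference of -0.28 against 0.01 over all tested genes, and 0 passed the test with 8 libraries. On the lower side 10 had an unadjusted p under 0.05, where 4.37% of all tested genes did, and on the higher side 2, where 4.73% did. The ko values lay entirely below the wild-type values in 6 of the 29 (1.67% over all tested genes), namely Junb, Cebpd, Pim1, Lrg1, Reg3b and Il4ra, and entirely above them in 1, Myc (2.36% over all tested genes). Several of these genes were already known to be low in these libraries when the list was drawn up, so the count is no independent support for the direction. The part of STAT3 or of the family's cytokines in these differences was not tested.

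Reg3b, a secreted antibacterial lectin, had 16.98, 17.39, 16.63 and 16.86 in wild type 1 to 4, and 15.11, 15.72, 16.26 and 16.04 in Arg1 ko 1 to 4. The groups did not overlap, and the difference was -1.18 with a standard error of 0.26 (limma unadjusted p = 0.00103, adjusted p = 0.522). Junb, a transcription factor of the AP-1 group, had 11.89, 11.75, 11.62 and 11.75 in wild type 1 to 4, and 11.20, 11.01, 11.49 and 11.18 in Arg1 ko 1 to 4. Its lowest ko library, Arg1 ko 2, was also the lowest for Socs3 and Osm, and its highest, Arg1 ko 3, was the highest ko library for both.

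Cebpd, an acute phase transcription factor, averaged 10.40 ± 0.23 (SD, n = 4) in wild type against 9.87 ± 0.05 (SD, n = 4) in Arg1 ko, and Lrg1, a secreted acute phase glycoprotein, averaged 8.60 ± 0.34 (SD, n = 4) in wild type against 7.93 ± 0.21 (SD, n = 4) in Arg1 ko. Pim1, a survival kinase, and Il4ra, a receptor chain of interleukin 4, differed by -0.28 and -0.21, the latter being -0.13 without wild type 4. Myc, the growth-promoting transcription factor, differed by 0.44 (0.24 without wild type 4), which is opposite in sign to the list's median. Of the genes with a promoter match shown above, Reg3b was the 1 STAT3 target whose groups did not overlap, while Irf1 and Icam1 each differed by 0.02 and Bcl6 by 0.29. Without the library labelled wild type 3, 6 of the 29 passed, all lower in Arg1 ko, where 3.28% of all tested genes passed on that side. As several listed genes were already known to be low, this count is no independent support for the direction either. Reg3b is made by epithelial cells, whose markers had a mean of 14.32 to 14.71 in wild type and 14.38 to 14.58 in Arg1 ko, with 3 of 8 higher and none at 0.

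**Figure D5:**
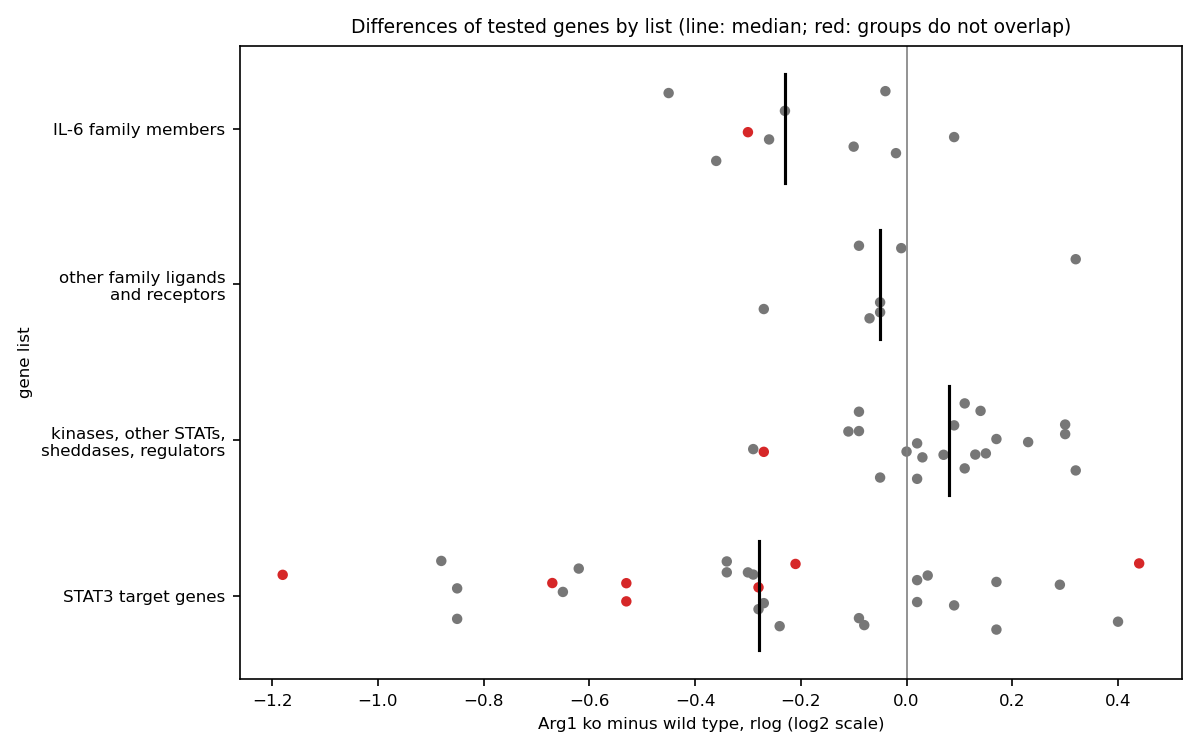
Difference between the group means (Arg1 ko minus wild type, rlog, log2 scale) for the tested genes of 4 lists, each point a gene (vertical scatter within a list has no meaning), black lines the list medians, and red points genes whose groups do not overlap. The median is -0.23 for the 9 tested family genes, -0.05 for other ligands and receptors, 0.08 for kinases and regulators and -0.28 for STAT3 target genes.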

How the data were processed

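The labels' protocols give 1000 ng of total RNA per library and an Illumina kit for stranded mRNA. The submitters' processing notes name STAR 2.5.2b, BWA 0.7.14-r1136, featureCounts from Subread 1.5.3, DESeq2 1.16.1 and the build GRCm38. Annotation release and counting options: not given in the sources used here. What the authors deposited are log2 values (rlog), scaled for library size and drawn toward each gene's mean. They keep no counts, so the depth is unknown.

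All 8 columns were matched to samples by label. Genes were named from GENCODE vM21 (53274 of 53465 IDs). Those with a mean of at least 3 entered the test in limma 3.58.1 (R 4.3.3, prior following the mean, no covariate). That fit was also run on simulated data with independent noise and the same SD in both groups. The libraries here differ from that, as 90.9% of tested genes had the larger SD in wild type. The simulation thus does not show how the fit behaves on these libraries. Replicates are numbered by accession and pair no samples. The series' design text speaks of 8 mice, and p-values refer to the spread among their 8 libraries. Correlations used exact permutation, whose p is approximate where group means were removed.

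The family genes and all lists were chosen with earlier results of these data known. Named are the 10 genes, Arg1, up to 4 genes of each pathway list with the smallest p, and the genes of highest r (5 for Socs3, 3 for the others), leaving out predicted genes, receptor segments and pseudogenes. A few genes that this rule names are not reported here. Pim1, Il4ra, Myc, Lifr, Irf1, Icam1, Bcl6, Epcam, Myh11, Ly6g, Ltf, Camp, Cxcr2 and Csf3r were named after their values were seen. Promoter sequences are from RefSeq (GRCm38.p6). A planned search of receptor proteins was not run. Alternatives were other filters, scalings, priors, weights and thresholds, leaving out libraries, and, added later, the correction for transcript length (natural spline, 5 degrees of freedom, 16367 genes).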

Additional observations from a re-analysis of the deposited data

Results flagged for a closer look

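In a group of 4, a library was noted when its gap to the nearest other exceeded Dixon's 95% critical share of the group's range, which chance gives in about 1 of 20 groups; 60 groups of 30 genes were looked at and 4 were noted. Socs3 in wild type 2 (9.26) stood above the other wild-type libraries by 0.909 of the range. Arg1 in the library labelled wild type 3 (5.02) stood below the others by 0.973 of the range. Tyk2 in Arg1 ko 2 (9.84) stood above the other ko libraries by 0.896 of the range, in a group whose SD was 0.03. Bcl6 in Arg1 ko 1 (8.39) stood above the other ko libraries by 0.88 of the range.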

How the results depend on the processing

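No paired analysis was possible because the labels give the groups no shared replicate numbers. Of 18 alternatives to the gene test, 16 again called 0 genes. Without the library labelled wild type 3, 1005 genes and 6 STAT3 targets passed (over single left-out libraries, 0 to 1005 and 0 to 6), and library weights gave 10836 genes, 25 STAT3 targets and 6 family genes. Wild type 2 weighed 16.4 there and the remaining wild-type libraries 0.135 to 0.304, and that fit thus compares Arg1 ko with nearly a single library. Differences of Osm (-0.71 to -0.30), Socs3 (-0.53 to -0.22) and Il11ra1 (-0.64 to -0.00) kept their sign in every alternative run. With weights the sign turned for Lif (0.31), Osmr (0.04), Il6ra (0.09), Lifr (0.06) and Irf1 (-0.17). With medians aligned it turned for Irf1 (-0.01) and Icam1 (-0.01), and with quantile normalisation for Icam1 (-0.02). Without wild type 1 and 2 it turned for Il11 (0.04), Il6st (-0.18) and Icam1 (-0.06), and with the length correction for Il6st (-0.09) and Cntfr (0.02). Leaving out single libraries gave -0.19 to 0.05 for Osmr, -0.14 to 0.11 for Il6ra, -0.02 to 0.19 for Il6st, -0.19 to 0.01 for Stat3, -0.17 to 0.12 for Lifr, -0.15 to 0.17 for Irf1 and -0.05 to 0.07 for Icam1. The number of correlations with Socs3 that passed was 1, and 0 with group means removed or by Spearman, with 0 to 1 over single left-out libraries. Correlations that changed sign were, with medians aligned, Lif (0.03) and Osmr (0.04), with quantile normalisation Lif (0.06) and Osmr (0.02), and with the length correction Lif (0.17), Osmr (0.54), Il6ra (0.39) and Il6st (0.35). They were also Stat3 with group means removed (-0.07), and by Spearman Lif (0.29), Osmr (0.10) and Il6st (0.02). Over single left-out libraries r ran from -0.28 to 0.78 for Lif and from -0.11 to 0.07 for Osmr. The cause of these changes was not tested. Il6 fell under every limit on low values and had the unfiltered alternative alone, and Osm and Il11 fell under the limit of 5.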
